A study of Mus musculus with 10 samples.

Results

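The 7 cyclin-dependent kinase inhibitor genes Cdkn1a, Cdkn1b, Cdkn1c, Cdkn2a, Cdkn2b, Cdkn2c and Cdkn2d were taken by symbol from the 24500 genes counted in ChIP-seq of mouse embryonic stem (ES) cells. All 7 symbols were found, 3 of the Cip/Kip family and 4 of the INK4 family. Control cells were wild-type E14, an ES cell line of strain 12910la, and mutant cells were E14 cells whose genotype label gives a knock out of exon 14 of Ezh2. The mutant is called ex14D here, because the study describes an ex14D-Ezh2 line in which CRISPR-Cas9 disrupted that exon and left the isoform lacking it as the functional one. The sample titles read Ezh2KO, a name the study also gives to a separate Ezh2 knockout line, so every ex14D value rests on the genotype label. Both genotypes share the E14 background. There were 10 libraries, 2 for each antibody (H3K27me3 or EZH2) in each genotype and 1 input (chromatin without immunoprecipitation) per genotype. The labels do not say whether the libraries of a group came from separate cultures or clones, so p-values measure only the spread between these libraries, which may be technical.

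Cyclin-dependent kinase inhibitors hold back the kinases that drive the cell cycle. The Cip/Kip proteins p21 (Cdkn1a), p27 (Cdkn1b) and p57 (Cdkn1c) bind cyclin-CDK complexes, whereas the INK4 proteins p16 (Cdkn2a), p15 (Cdkn2b), p18 (Cdkn2c) and p19 (Cdkn2d) bind CDK4 and CDK6. Cdkn2a also encodes ARF, which stabilises p53, from a first exon of its own. EZH2 is the methyltransferase of Polycomb repressive complex 2 (PRC2) and places H3K27me3, a mark of silenced promoters, and the Cdkn2a and Cdkn2b locus is a long-known Polycomb target.

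H3K27me3 and input reads were counted by the authors in a window of 1000 bp centred on the 5′ most transcription start site (TSS) of each gene. Reads on genes numbered 594289 to 1450937 in the 4 H3K27me3 libraries, 409371 and 416778 in the inputs and 13628137 to 18403892 in the EZH2 libraries. EZH2 reads grew with the length of the gene, so their counts are taken to cover the whole gene. Promoters of Pou5f1, Nanog and Sox2, which ES cells express, lay below input in all 4 H3K27me3 libraries when scaled to reads on genes. Sox2 was 2.05-fold over input in control library 1 when scaled to all counted reads. The promoters of Hoxd9, Pax7 and Bmp6, which are silent in ES cells, lay above input in all 4. Their log2 values over input ran from 3.20 to 4.36 in control and from 4.08 to 5.39 in ex14D. By ChIP-PCR, however, the study found Hoxd9, Pax7 and Bmp6 less methylated in its ex14D-Ezh2 cells.

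Sequences upstream of 6 starts are shown first. Cdkn2c is shown for its lower H3K27me3 in ex14D, and Cdkn1b as a gene whose counted window was not marked over input. Cdkn2a and Cdkn1a are shown because each has 2 starts, of which the window counted by the authors held only the 5′ most. The sequence of Cdkn1c is not used here. Each line gives the 250 bases before a RefSeq start (GRCm38.p6), read 5′ to 3′ on the strand of the gene, with every CG dinucleotide in capitals. Cdkn2c and Cdkn2a lie on the reverse strand, and Cdkn1a and Cdkn1b on the forward strand. The lines cover chr4:109666757-109667006 (Cdkn2c, 5′ most start), chr4:89294620-89294869 (Cdkn2a, ARF start), chr4:89282193-89282442 (Cdkn2a, p16 start), chr17:29090729-29090978 (Cdkn1a, 5′ most start), chr17:29093519-29093768 (Cdkn1a, internal start) and chr6:134920151-134920400 (Cdkn1b).
Cdkn2c 5′ most start: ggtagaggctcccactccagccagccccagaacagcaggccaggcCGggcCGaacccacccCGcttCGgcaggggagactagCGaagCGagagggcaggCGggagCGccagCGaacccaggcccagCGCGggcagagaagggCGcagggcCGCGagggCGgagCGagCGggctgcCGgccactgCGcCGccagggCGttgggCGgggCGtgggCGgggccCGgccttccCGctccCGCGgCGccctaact
Cdkn2a ARF start: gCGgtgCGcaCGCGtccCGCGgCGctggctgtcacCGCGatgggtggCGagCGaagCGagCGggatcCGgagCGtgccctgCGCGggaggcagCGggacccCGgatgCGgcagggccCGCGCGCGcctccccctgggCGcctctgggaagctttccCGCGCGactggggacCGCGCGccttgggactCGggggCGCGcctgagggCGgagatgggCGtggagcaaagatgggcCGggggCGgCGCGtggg
Cdkn2a p16 start: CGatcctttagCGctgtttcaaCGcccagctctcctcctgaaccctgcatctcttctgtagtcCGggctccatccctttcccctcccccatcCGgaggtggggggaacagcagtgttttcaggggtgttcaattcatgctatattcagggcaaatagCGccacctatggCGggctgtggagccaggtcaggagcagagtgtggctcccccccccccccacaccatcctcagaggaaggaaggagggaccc
Cdkn1a 5′ most start: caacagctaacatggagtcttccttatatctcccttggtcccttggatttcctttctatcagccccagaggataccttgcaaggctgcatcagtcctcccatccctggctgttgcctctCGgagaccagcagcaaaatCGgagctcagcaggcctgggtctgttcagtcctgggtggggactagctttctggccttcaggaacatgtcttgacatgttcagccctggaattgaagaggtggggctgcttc
Cdkn1a internal start: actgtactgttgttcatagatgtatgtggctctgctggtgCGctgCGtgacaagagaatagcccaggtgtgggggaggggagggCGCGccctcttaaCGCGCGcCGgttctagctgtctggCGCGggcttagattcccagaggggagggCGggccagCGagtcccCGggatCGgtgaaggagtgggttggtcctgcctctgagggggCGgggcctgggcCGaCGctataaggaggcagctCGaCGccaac
Cdkn1b start: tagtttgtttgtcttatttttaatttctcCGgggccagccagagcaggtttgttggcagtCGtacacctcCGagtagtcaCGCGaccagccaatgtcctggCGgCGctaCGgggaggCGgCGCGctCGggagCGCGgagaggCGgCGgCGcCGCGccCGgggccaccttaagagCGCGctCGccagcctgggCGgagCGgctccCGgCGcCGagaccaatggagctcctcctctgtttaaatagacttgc

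The sequences differed in CG content. The ARF start of Cdkn2a had 40 CG dinucleotides, a number reached by 1.31% of 32851 RefSeq promoters of the same length, and the 5′ most start of Cdkn2c had 29, reached by 6.78%. The p16 start of Cdkn2a had 7, near the median of 6 over all promoters. Cdkn1a had 2 before its 5′ most start and 19 before its internal start. Cdkn1b, whose window was not marked over input, had 28, reached by 7.61%. A high CG content was thus found in windows both with and without the mark. The GC box GGGCGG, searched on both strands, occurred 3 times before the 5′ most start of Cdkn2c. It also occurred 3 times before Cdkn2d, whose window was not marked. The ARF start had 2, the internal start of Cdkn1a 2 and Cdkn1b 1, and 32.7% of all promoters held it. The E2F-like motif TTTNNCGC occurred 1 time before each start of Cdkn2a and in 4.28% of all promoters. TATAAA (12.4% of promoters) and CACGTG (6.02%) occurred before none of the starts searched, and CANNTG (66.2%), which would overlap any CACGTG, occurred 1 time before Cdkn2b and 1 time before the internal start of Cdkn1a. These matches describe letters within the window and not binding.

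In control cells Cdkn1c, Cdkn2c and Cdkn2a carried H3K27me3 over their windows, with both libraries reaching 2-fold over input or more, and the other 4 genes did not. Of all 24500 windows, 11.3% passed the same rule. In ex14D cells Cdkn1c and Cdkn2a passed it and Cdkn2c did not, beside 9.14% of all windows. CPM, the reads of a window scaled to a common total of reads on genes, may be compared between these genes because every window has the same length. Reads on genes made up a larger share of the H3K27me3 libraries than of the inputs, so folds over input are higher when scaled to all counted reads, reads on no gene included. On that scale, with 1 CPM added, the same members passed the rule. The inputs of the members held only 0.322 to 1.30 CPM there, so the added 1 CPM pulls folds towards 1. Without it Cdkn2b also passed in ex14D, at 5.01-fold and 3.38-fold over input.

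**Figure D1:**
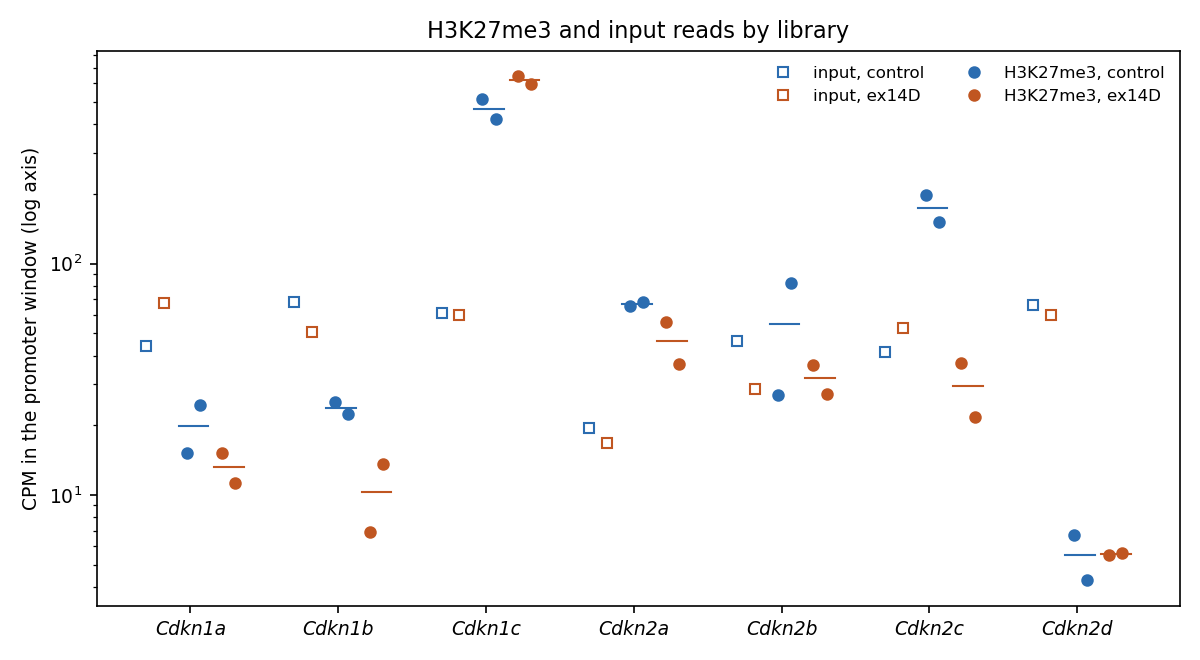
H3K27me3 (filled circles, 2 libraries per group, bar at the mean) and input (open squares, 1 library per genotype) in CPM on a log axis, for control (blue) and ex14D (orange). Cdkn1c stands highest in both genotypes at 421 CPM or more, and Cdkn2c drops from 152 and 197 CPM in control to 21.6 and 37.2 CPM in ex14D. On this scale of reads on genes the ex14D values lie below both inputs of Cdkn2c, but scaled to all counted reads they lie above them, at 1.48 and 2.82 CPM against 0.788 and 1.01 CPM.

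Cdkn1c, which encodes p57 and is an imprinted gene expressed from the maternal allele, had the highest H3K27me3 of the 7. The gene spans chr7:143458339-143461050 on the reverse strand. Its window held 305 and 395 reads in the control libraries (513 and 421 CPM) and 938 and 747 in the ex14D libraries (646 and 599 CPM), against 25 reads in each input. Both ex14D libraries stood above both control libraries, as in 9.1% of the windows tested. The mean was 467 ± 64.9 CPM (SD, n = 2) in control and 623 ± 33.9 CPM in ex14D, rank 220 and rank 266 of 24500 windows. Over input it was 8.28-fold and 6.81-fold in control and 10.6-fold and 9.83-fold in ex14D.

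Among the INK4 genes, Cdkn2c, which encodes p18, changed most. The gene spans chr4:109660876-109666756 on the reverse strand. Its window held 117 and 142 reads in control (197 and 152 CPM) and 54 and 27 in ex14D (37.2 and 21.6 CPM), with 17 and 22 reads in the control and ex14D inputs. Both ex14D libraries lay below both control libraries, as in 51.2% of the windows tested. The window was 4.65-fold and 3.59-fold over input in control and 0.711-fold and 0.421-fold in ex14D. Scaled to all counted reads it was 14.1-fold and 11.5-fold in control and 2.78-fold and 1.47-fold in ex14D, so whether ex14D lay above or below input depended on the scaling. The Wilson 95% intervals, which cover counting error only, ran from 129 to 236 CPM over the control libraries and from 14.9 to 48.6 CPM over the ex14D libraries.

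Cdkn2a spans chr4:89274473-89294619 on the reverse strand, and its counted window surrounds the ARF start. The window held 39 and 64 reads in control (65.6 and 68.3 CPM) and 81 and 46 in ex14D (55.8 and 36.9 CPM). Over input it was 3.24-fold and 3.37-fold in control and 3.19-fold and 2.13-fold in ex14D. These folds rest on few input reads, 8 and 7, and the window shares 439 bp with that of Gm12610 on the opposite strand, where reads fall on both genes. With a pseudocount of 5 CPM in place of 1 CPM, Cdkn2a no longer passed the 2-fold rule in ex14D.

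Cdkn2b, which encodes p15, lies upstream of Cdkn2a on the same strand, from 89306289 to 89311032. Its control libraries disagreed, with 16 reads in one and 77 in the other (26.9 and 82.2 CPM), and the ex14D libraries lay between them with 53 and 34 (36.5 and 27.2 CPM). It ranged from 0.589-fold to 1.75-fold over input in the 4 libraries. Scaled to all counted reads it was 1.73-fold and 5.57-fold in control and 5.01-fold and 3.38-fold in ex14D.

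The remaining genes lay below input in every library when scaled to reads on genes. Scaled to all counted reads, Cdkn1a and Cdkn1b turned to slightly above input in control, at 1.02-fold and 1.76-fold and at 1.10-fold and 1.03-fold, and stayed below it in ex14D, while Cdkn2d stayed below in all 4. Cdkn1a (p21; chromosome 17, forward strand, 29090979 to 29100722) had 9 and 23 reads in control and 22 and 14 in ex14D, 0.179-fold to 0.568-fold of input. Cdkn1b (p27; chromosome 6, forward strand, 134920401 to 134925525) had 15 and 21 reads in control and 10 and 17 in ex14D, 0.154-fold to 0.378-fold of input. Cdkn2d (p19; chromosome 9, reverse strand, 21288463 to 21291209) was lowest, with 4 reads in each control library and 8 and 7 in ex14D against 27 and 25 in the inputs.

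In control cells the mean levels ran from Cdkn1c through Cdkn2c (174 ± 32.1 CPM, SD, n = 2), Cdkn2a (67.0 ± 1.88), Cdkn2b (54.5 ± 39.1), Cdkn1b (23.8 ± 2.00) and Cdkn1a (19.8 ± 6.64) to Cdkn2d (5.50 ± 1.74). The ranges of Cdkn2a and Cdkn2b overlapped, as did those of Cdkn1b and Cdkn1a. In ex14D cells Cdkn1c stayed first, and Cdkn2a (46.3 ± 13.4 CPM), Cdkn2b (31.9 ± 6.57) and Cdkn2c (29.4 ± 11.0) followed, the last 2 with overlapping ranges. Cdkn1a (13.2 ± 2.79) and Cdkn1b (10.3 ± 4.76) also overlapped, and Cdkn2d (5.56 ± 0.0673) was again last.

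The question of which inhibitor genes differ in H3K27me3 when exon 14 of Ezh2 is disrupted was put to the quasi-likelihood test of edgeR, with p-values adjusted by Benjamini-Hochberg across 14883 windows. Of the 6 members tested, Cdkn2c fell and Cdkn1c rose, and 4 did not pass the threshold of 0.05. Over all windows 3.25% fell and 5.83% rose (483 and 867), whereas 2130 fell and 398 rose with library size alone and 585 and 633 with all counted reads. With TMM, the scaling of edgeR that balances the bulk of the windows and that the tests here use, the median log2 fold change of the 6 members was −0.28 against −0.03 over all windows. Cdkn2d did not pass the filter on low counts.

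Cdkn2c fell by 2.10 on the log2 scale (SE 0.30, edgeR adjusted p = 2.12e-05), 25th among the lowest of all windows tested, and it passed the threshold in each alternative run. Cdkn1c rose by 0.86 (SE 0.20, edgeR adjusted p = 0.00446). The rise of Cdkn1c is relative to the other windows. Scaled by library size alone, which moved the median of all windows to −0.47, it was 0.42 (edgeR adjusted p = 0.116), and the adjusted p was also above the threshold without control library 2 (0.68, edgeR adjusted p = 0.122) or without ex14D library 1 (0.81, edgeR adjusted p = 0.103).

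The other 4 had log2 fold changes of −0.77 (SE 0.41, edgeR adjusted p = 0.297) for Cdkn1b, −0.38 (SE 0.38, edgeR adjusted p = 0.645) for Cdkn2b, −0.19 (SE 0.39, edgeR adjusted p = 0.851) for Cdkn1a and −0.08 (SE 0.31, edgeR adjusted p = 0.923) for Cdkn2a. Scaled by library size alone, Cdkn1b passed the threshold at −1.22 (edgeR adjusted p = 0.0363). For single genes an exact permutation test of 2 libraries against 2 cannot give a two-sided p below 0.333.

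**Figure D2:**
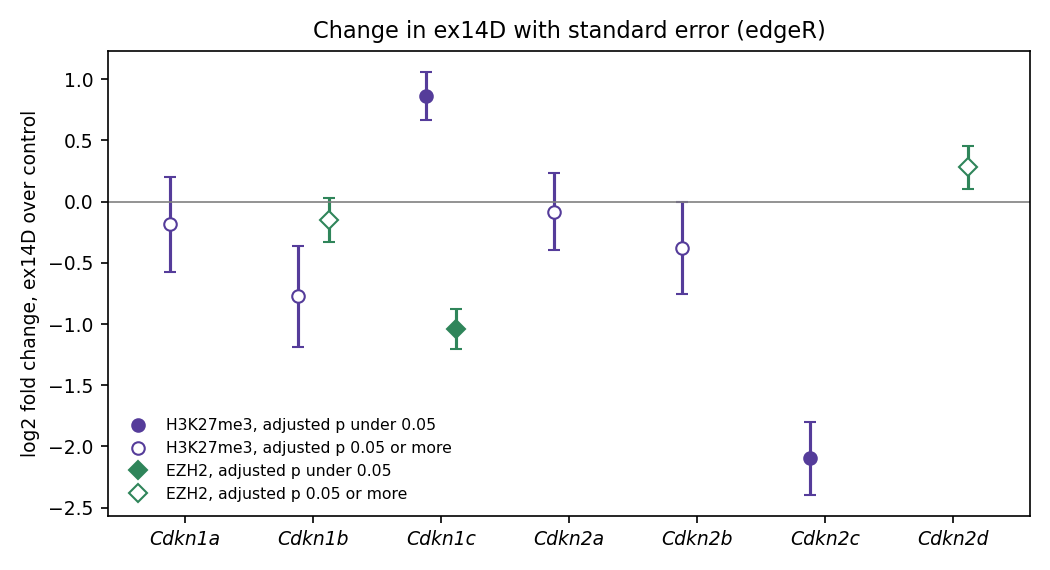
Log2 fold change of ex14D over control from edgeR, with its standard error as the bar, for H3K27me3 over promoter windows (circles) and EZH2 over genes (diamonds); filled symbols have an adjusted p under 0.05. Cdkn1c rises by 0.86 in H3K27me3 and falls by 1.04 in EZH2, and Cdkn2c falls by 2.10 in H3K27me3 and has no EZH2 symbol.

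EZH2 reads were obtained over 3 of the 7 genes. Cdkn1c had 1535 and 2062 reads in control (111 and 112 CPM) and 920 and 731 in ex14D (67.5 and 44.5 CPM). Both ex14D libraries lay below both control libraries, as in 18% of the genes tested, and the mean went from 111 ± 0.921 CPM (SD, n = 2) to 56.0 ± 16.3 CPM. Per kb of gene, Cdkn1c had 663 reads on average in control, rank 92 of 13882 genes where the median was 15.6, and 304 in ex14D, rank 112.

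H3K27me3 in the promoter window of Cdkn1c had risen relative to other windows. EZH2, counted over the whole gene, fell by 1.04 on the log2 scale (SE 0.16, edgeR adjusted p = 0.0100), the opposite direction. Without control library 1 or without control library 2 no gene passed the threshold, and Cdkn1c was at −1.05 (edgeR adjusted p = 0.210) and −1.03 (edgeR adjusted p = 0.232). Of 13401 genes tested in the full set 7.88% fell and 0.0522% rose, and of the 3 members tested 1 fell and 0 rose in edgeR and in DESeq2, also at an unadjusted p under 0.05.

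Cdkn1b and Cdkn2d held few EZH2 reads and did not pass the threshold. Cdkn1b had 74 and 134 reads in control and 78 and 101 in ex14D (log2 fold change −0.15, SE 0.18, edgeR adjusted p = 0.771). Cdkn2d had 42 and 55 in control and 51 and 62 in ex14D (0.28, SE 0.18, edgeR adjusted p = 0.538). Both ex14D libraries of Cdkn2d lay above both control libraries in CPM, as in 35.6% of the genes tested. Per kb of gene, Cdkn1b had 20.3 reads in control (rank 2096 of 13882) and 17.5 in ex14D (rank 2924), and Cdkn2d had 17.7 (rank 3599) and 20.6 (rank 1321), all above the medians of 15.6 and 15.3.

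Cdkn1a, Cdkn2a, Cdkn2b and Cdkn2c were listed at 0 EZH2 reads in all 4 libraries, and these zeros are not read as absence of EZH2. Each gene lay in a run of consecutive genes at 0, of 71 genes for Cdkn1a, 119 for Cdkn2a and Cdkn2b and 314 for Cdkn2c. In all, 10575 of 24500 genes (43.2%) were at 0 in the 4 libraries, including 1675 of the 4090 genes with an EZH2 domain over their window in both control libraries. EZH2 at these genes was therefore described from the enriched domains that the authors called with hiddenDomains, which have positions but no height. At the members these domains begin and end in steps of 1 kb. Where a domain covers part of a window, the bp covered depend on where those steps fall.

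An H3K27me3 peak, called by the authors with MACS2, overlapped the window in both control libraries for 3 of the 7 genes (Cdkn1c, Cdkn2a and Cdkn2c), beside 18% of 24359 windows placed on the genome. In ex14D it did so for 2 (Cdkn1c and Cdkn2a), beside 16.5%. An EZH2 domain overlapped the window in both control libraries for 4 (Cdkn1c, Cdkn2a, Cdkn2b and Cdkn2c), beside 16.8%, and in both ex14D libraries for 3 (Cdkn1c, Cdkn2a and Cdkn2c), beside 10.4%. The windows were placed with RefSeq starts on GRCm38 and may differ from those the authors counted. Peaks and domains were called in each library apart, at unequal depth. Counted reads numbered 10525739 and 15683174 for H3K27me3 in control and 19151253 and 18184514 in ex14D. For EZH2 they numbered 31275881 and 41593153 in control and 30958131 and 37439405 in ex14D. How depth bears on the number, width and fold enrichment of intervals was not tested.

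At Cdkn2c the peaks of the genotypes differed at the 5′ end. The H3K27me3 peaks covered all 1000 bp of the window at the 5′ most start in both control libraries, but 91 bp and 0 bp in ex14D. The window of the internal start, at 109665372, was covered whole in all 4 libraries. The control peaks ran from 109650509 to 109667869 and from 109651773 to 109668500, with MACS2 fold enrichments of 9.26 and 2.51. In ex14D library 1 a peak ran from 109655057 to 109666346 with a fold enrichment of 13.8 and a small one lay upstream, from 109667584 to 109668299. In ex14D library 2 a single peak ran from 109654664 to 109665905, with a fold enrichment of 9.65. The EZH2 domains still covered 745 bp of the 5′ most window in both ex14D libraries, against 745 bp and 1000 bp in control. Of 3124 windows that peaks covered whole in both control libraries, 58 (1.86%) kept less than 100 bp in both ex14D libraries, a limit chosen after the values were seen. The upstream sequence that lost its peak is the one with 29 CG dinucleotides printed first. The 250 bases before the internal start, whose window stayed covered, held 6.

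**Figure D3:**
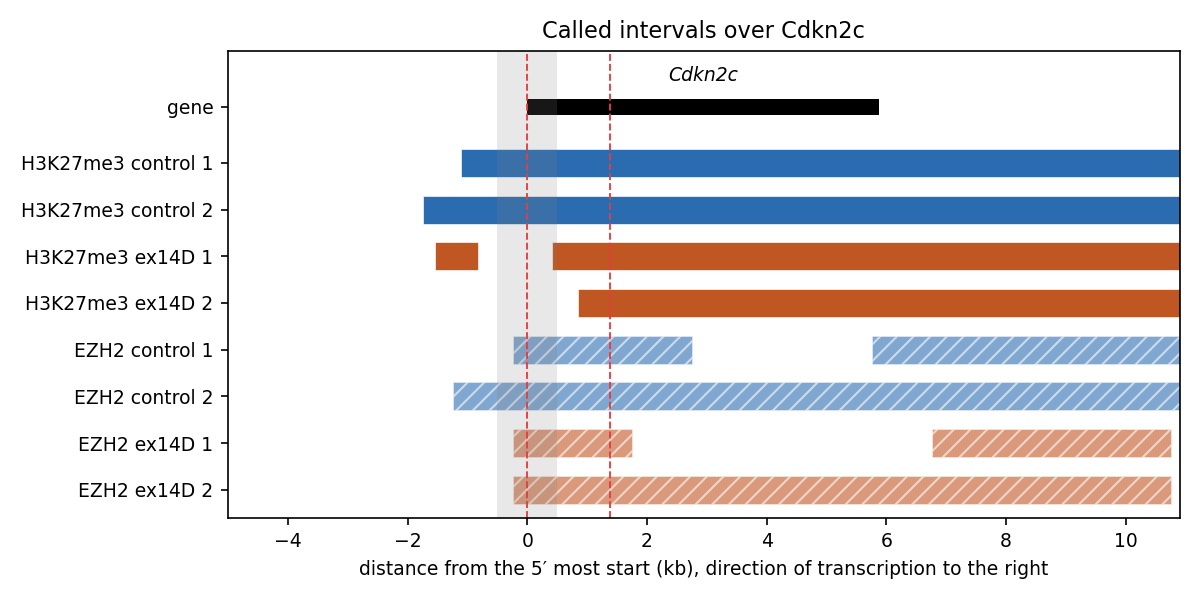
H3K27me3 peaks (solid bars) and EZH2 domains (hatched bars) in each library over Cdkn2c, against the distance in kb from the 5′ most start; dashed lines mark starts and the grey band the 1 kb window counted. The H3K27me3 bars of ex14D cover 91 bp and 0 bp of the band, whereas the bars of all 4 H3K27me3 libraries cover the internal start.

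At Cdkn2a the windows of both the ARF start and the p16 start were covered whole by H3K27me3 peaks and by EZH2 domains in all libraries of both genotypes, although their upstream sequences held 40 and 7 CG dinucleotides. The extent differed. One peak spanned the whole gene in each control library, of 32.3 kb and 45.2 kb, and in each ex14D library 2 separate peaks lay over the gene, of 14.6 and 21.6 kb in library 1 and 13.6 and 5.81 kb in library 2. The EZH2 domain over the ARF start was 6 kb and 20 kb wide in control and 2 kb in each ex14D library, and that over the p16 start was 15 kb and 13 kb in control and 11 kb in each ex14D library.

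At Cdkn2b EZH2 domains covered 469 bp and 1000 bp of the window in control and 0 bp in both ex14D libraries. H3K27me3 peaks lay over the body of the gene in all 4 libraries, but reached the window only in control library 2. Its change in H3K27me3 counts did not pass the test.

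**Figure D4:**
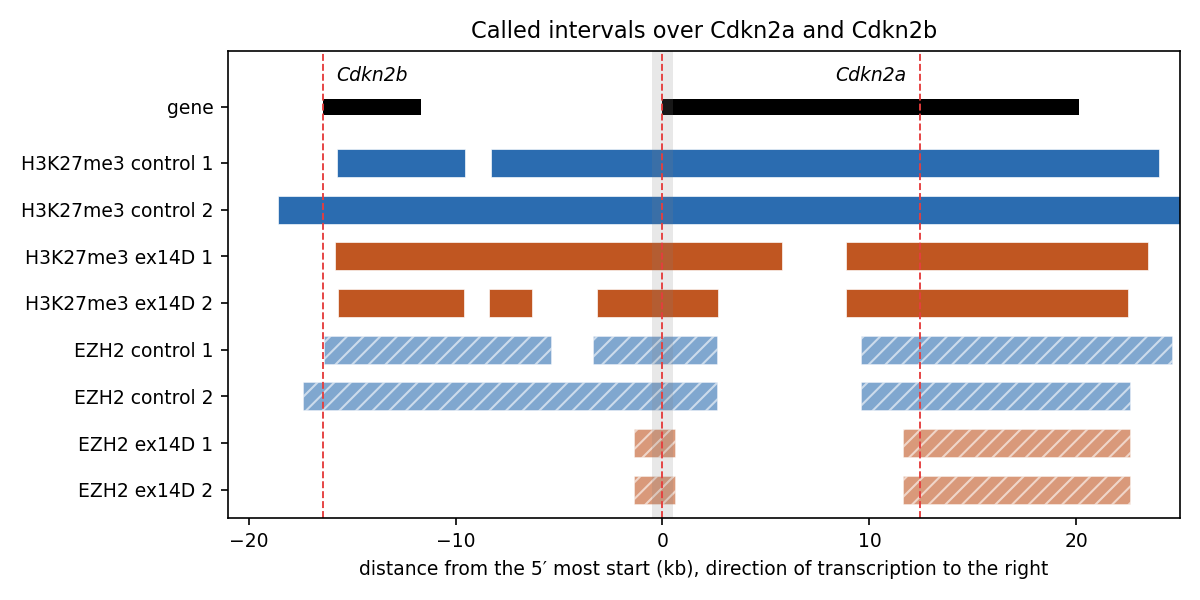
H3K27me3 peaks (solid bars) and EZH2 domains (hatched bars) in each library over Cdkn2a and Cdkn2b, against the distance in kb from the ARF start of Cdkn2a; dashed lines mark the starts of Cdkn2b, ARF and p16 from left to right. EZH2 bars over the ARF start are 2 kb wide in both ex14D libraries against 6 kb and 20 kb in control, and ex14D has no EZH2 bar over Cdkn2b.

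At Cdkn1a the called intervals lay outside the counted window, as that window was placed here. No peak or domain covered the 5′ most start, the one with 2 CG dinucleotides upstream. At the internal start, at 29093769, with 19 CG dinucleotides upstream, H3K27me3 peaks covered 127 bp and 1000 bp of a window of the same length in control and 1000 bp in both ex14D libraries. EZH2 domains covered 1000 bp there in both control libraries and 268 bp in both ex14D libraries. The MACS2 fold enrichment of these peaks was 2.33 and 1.87 in control and 3.68 and 2.97 in ex14D. No reads were counted at this start, so no test of a difference was run.

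**Figure D5:**
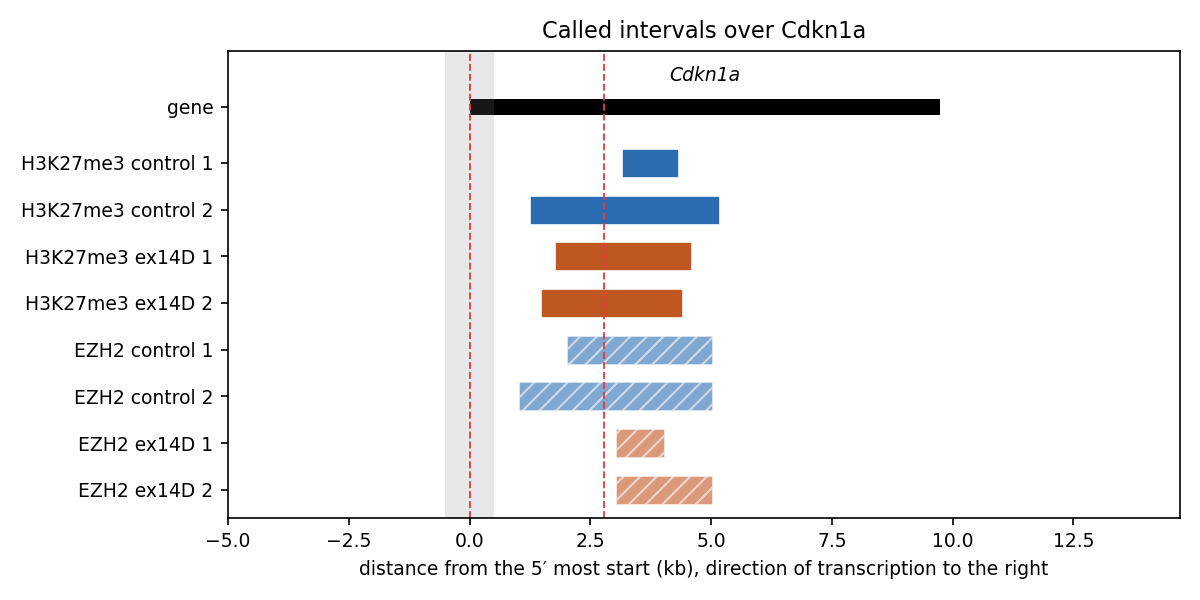
H3K27me3 peaks (solid bars) and EZH2 domains (hatched bars) in each library over Cdkn1a, against the distance in kb from the 5′ most start; dashed lines mark the starts and the grey band the 1 kb window counted. No bar touches the band, and all 8 libraries have a bar within 500 bp of the internal start.

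At Cdkn1c the window was covered whole in every H3K27me3 and EZH2 library. The H3K27me3 peak over it was 47.0 kb and 85.3 kb wide in control and 148.6 kb and 61.8 kb in ex14D, and the EZH2 domain 10 kb and 35 kb in control and 10 kb and 8 kb in ex14D. Cdkn1b had no peak or domain over its window, but a peak of 1.01 to 1.58 kb ended upstream of the window in each of the 4 libraries. Its MACS2 fold enrichment was 2.39 and 6.04 in control and 10.7 and 10.8 in ex14D. Control library 2 had another peak of 0.929 kb inside the gene, and ex14D library 2 had another of 0.416 kb further upstream. No peak or domain lay within 5 kb of Cdkn2d in any library.

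The 2 counted genes nearest on either side of each member showed how far a pattern extended. Beside Cdkn1c, Phlda2, another imprinted gene, with its start 41.5 kb away, carried H3K27me3 in both genotypes and rose by 0.65 (SE 0.21, edgeR adjusted p = 0.0475), while its EZH2 was at −1.13 (SE 0.28, edgeR adjusted p = 0.0570). Slc22a18, which lies between the 2, was not marked. The peak over Cdkn1c in ex14D library 1, 148.6 kb wide, nevertheless covered the starts of Slc22a18 and Phlda2. In the other H3K27me3 libraries that peak ended before the start of Slc22a18. Beside Cdkn2c, Faf1, with its start 9.87 kb away, was not marked, and Dmrta2, at 311 kb, was marked in both genotypes and rose by 0.83 (SE 0.21, edgeR adjusted p = 0.00953). Gm12610, beside the ARF start, was marked in both genotypes (0.19, SE 0.26, edgeR adjusted p = 0.756). Slc44a2, with its start 29.5 kb from that of Cdkn2d, fell by 1.13 (SE 0.34, edgeR adjusted p = 0.0302) without being marked over input.

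The genes most like each marked member were those with the smallest root mean square difference of log2(CPM + 1) over the 6 H3K27me3 and input libraries. For Cdkn1c these were Cyp1b1 (0.06), Pou4f3 (0.10) and Nbl1 (0.11). For Cdkn2a they were Rab20 (0.23), Gm11110 (0.29) and Npr3 (0.30). For Cdkn2c they were Tle3 (0.22), Ccdc106 (0.32) and Baz1a (0.32). The last 3 had 24.0 to 46.2 CPM in the ex14D libraries and 123 to 188 CPM in control, as the choice by likeness fixes.

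Of 30 other cell cycle genes (cyclins, CDKs, pocket proteins, E2F and DP factors, Trp53, Mdm2, Bmi1 and Cdc25a), 16 were tested for H3K27me3, of which 3 rose and 0 fell in edgeR, with a median log2 fold change of 0.01. Over all windows 5.83% rose. Without control library 2 edgeR called 0 of the list higher. At an unadjusted p under 0.05, 1 fell in edgeR and 0 in DESeq2. Those that rose were E2f6, an E2F member that acts with Polycomb proteins (1.28, SE 0.22, edgeR adjusted p = 0.000268), Bmi1, a subunit of PRC1 and a known repressor of Cdkn2a (1.11, SE 0.20, edgeR adjusted p = 0.000435), and Ccnd2, a D-type cyclin (1.08, SE 0.20, edgeR adjusted p = 0.000376). All 3 were marked over input in both genotypes. Of the list, 5 were marked in control and 4 in ex14D, beside 11.3% and 9.14% of all windows. The difference was Ccnd1, whose log2 values over input in ex14D were 0.764 and 0.990, just under the limit of 1. Ccna1, marked in both genotypes, held only 6.73 to 11.0 CPM of H3K27me3.

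For EZH2, 20 of the 30 were tested, 3 fell and 0 rose in edgeR, with a median of −0.05, and 10 were listed at 0. No gene of the list rose at an unadjusted p under 0.05 in edgeR or DESeq2, and over all genes 7.88% fell. DESeq2 called 1 of the list lower, edgeR with a replicate block 1, and edgeR without control library 1 or without control library 2 called 0. Without ex14D library 1 edgeR called 5 lower and 1 higher. Ccnd1, the D-type cyclin that partners CDK4 and CDK6, fell by 1.04 (SE 0.09, edgeR adjusted p = 0.00341), and its H3K27me3 was at 0.01 (SE 0.25, edgeR adjusted p = 0.991). Ccnd2 fell by 0.37 (SE 0.07, edgeR adjusted p = 0.0211) and E2f2 fell by 0.37 (SE 0.08, edgeR adjusted p = 0.0326).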

How the data were processed

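H3K27me3 and EZH2 ChIP-seq and inputs of control and ex14D E14 cells were analysed. The authors aligned reads to mm10 and deposited read counts per gene without normalization, made with htseq-count; the submitters' processing notes name Trimmomatic, Bowtie2, MACS2, ChIPseeker and HTSeq. The authors also deposited MACS2 broad peaks of each H3K27me3 library, with a fold enrichment (a ratio), −log10 p and −log10 q, and a display score, and hiddenDomains positions of each EZH2 library. Domain files of H3K27me3 were not used, because their positions did not match GRCm38.

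Reads on no gene (92.0% to 98.0% of H3K27me3 and input reads, 33.8% to 34.9% of EZH2 reads) were left out of library totals. Gene counts were compared with edgeR 4.0.16 in R 4.3.3 (filterByExpr, TMM with library totals over all genes, quasi-likelihood F test, Benjamini-Hochberg adjustment), for each antibody apart. The SE is approximate, taken as |log2 fold change|/√F. For marked genes both libraries had a log2 ratio over input, with 1 CPM added to each side, of 1 or more. Intervals overlapped a window by at least 1 bp. Of 24500 symbols 24359 were placed on GRCm38, 841 by synonym. Same-group libraries differed by more than sampling noise (chi-square per degree of freedom 1.49 to 4.01). Named genes were the members, 30 cell cycle genes, the 2 nearest counted genes on either side, the 3 genes most like each marked member, and 6 marker genes (Pou5f1, Nanog, Sox2, Hoxd9, Pax7 and Bmp6). Members and lists were chosen with earlier results of these data known. DESeq2 1.42.0, other scalings, filters, pseudocounts and overlaps, a replicate block and each library left out were the alternatives. Code was tested on simulated data.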

Additional observations from a re-analysis of the deposited data

How the results depend on the processing

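With library size alone, 2130 windows fell and 398 rose in H3K27me3 (483 and 867 with TMM), and 2 members fell and 0 rose in edgeR. The share of higher calls went from 64.2% to 15.7%, and with all counted reads to 52.0% (585 fell, 633 rose). DESeq2 called 269 lower. Leaving out 1 library gave 55 to 610 lower and 183 to 797 higher windows, and 0 to 1 members higher, the lone library being assumed to vary like the other group. Without control library 2, 55 fell and 183 rose; without ex14D library 1, 158 and 474; and without ex14D library 2, 105 and 429. Members not past the threshold turned sign in such fits, with ranges of −0.46 to 0.21 for Cdkn1a, −0.41 to 0.19 for Cdkn2a, −0.93 to 0.65 for Cdkn2b and, in EZH2, −0.33 to 0.12 for Cdkn1b.

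In EZH2, 7 genes rose with TMM, 47 with library size alone, 33 with all counted reads and 0 in DESeq2, where 7 had an unadjusted p under 0.05. Leaving out 1 library gave 0 to 1561 lower genes, 0 to 81 higher and 0 to 1 members lower. Without control library 1 or 2 edgeR called 0, with 1372 and 1300 lower and 186 and 198 higher at an unadjusted p under 0.05. With a pseudocount of 5 CPM, 1 member was marked in ex14D. The cause of these shifts was not tested.

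Same-numbered libraries deviated with r = −0.10 (H3K27me3) and −0.02 (EZH2). With 2 libraries per group these values cannot show whether same-numbered libraries were prepared together, and the labels do not say. A replicate block gave 411 lower and 765 higher windows and, in EZH2, 852 lower and 3 higher genes. Library totals over tested genes only, an alternative added after its result was seen, gave 475 lower and 871 higher windows and the same 2 members. No spike-in was given in the sources used here, so a change shared by all windows cannot be seen. By Western blot the study reported less EZH2 and less H3K27me3 in its ex14D-Ezh2 cells than in control cells. Rises in H3K27me3 given here are therefore relative to other windows. Whether the amount at a single window rose cannot be told from these counts. A median window held 7 to 13 H3K27me3 reads, so small differences at low windows were not detectable at this depth.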
